A study of Homo sapiens with 2 samples.

Results

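Glycolysis and hypoxia-inducible genes were examined as a set of 39 genes chosen by symbol, of which 37 were measured by a probe set carrying that symbol alone, among 19775 genes on the arrays. The lactate exporter SLC16A3 and the carbonic anhydrase CA9 were not analysed here. The set held 15 glycolytic enzymes, 4 regulators of glycolytic flux, 2 glucose transporters, 14 hypoxia targets outside glycolysis and both main hypoxia-inducible factors. The cells were QGP1, an established human cell line from a pancreatic neuroendocrine tumour. ALDH high QGP1 cells, collected by fluorescence-activated sorting for aldehyde dehydrogenase activity, were hybridised on 1 array, and Control QGP1 cells on 1 array. No genotype, agent, age or culture time distinguishes the groups in the labels, and the sources used here do not say if the control cells were sorted too. Both groups are the same line, and each value is that of 1 RNA preparation.

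Glycolysis splits glucose into pyruvate, which is either oxidised in mitochondria or reduced to lactate. When oxygen is short, prolyl hydroxylases stop marking the alpha subunits of the hypoxia-inducible factors for destruction by the VHL complex, and the stabilised factors switch on glucose transporters, glycolytic enzymes, pyruvate dehydrogenase kinases and genes of blood vessel growth, mitophagy and collagen modification. In pancreatic neuroendocrine tumours, loss of VHL in the inherited syndrome is a known route to this programme. Because the factors are controlled mostly by protein stability, their mRNA levels say little about their activity.

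The values are log2 levels made with RMA, a method that corrects background, equalises the distributions of the arrays and combines the probes belonging to a probe set. The median over both arrays was 5.68, and across probe sets, which are no replicates, Pearson's r between the arrays was 0.992. With 1 array per group no difference has a replicate check or a p-value, and the number of arrays limits the precision. The only spread at hand was that between probe sets of the same gene, whose differences had a pooled SD of 0.23 over 10523 genes and 0.24 over the 26 members with several. A difference is given as ALDH high minus control, on the log2 scale, for the probe set of each gene with the highest mean level. All 37 members reached the median level on at least 1 array. The 3' to 5' signal ratio of GAPDH, a sign of RNA integrity, was 1.14 for ALDH high and 1.15 for control, that of ACTB was 1.83 and 1.67, and poly-A controls added before labelling differed by 0.32 ± 0.07 (SD over 24 probe sets). Of the neuroendocrine markers, 7 of 7 measured were at or above the median. Their median difference was -0.02, with 4 below 0 and 2 above. CHGA (11.50 in ALDH high, 11.70 in control) and CHGB (12.60 and 12.71) were slightly lower. DDC (11.93 and 11.25) was the only one over 1.5-fold different, 1.60-fold higher, and INSM1 differed by 0.34. Levels at or above the median were also found for 3 of 8 fibroblast, 2 of 7 endothelial and 2 of 5 leukocyte markers. The highest were COL1A1 (7.46 in ALDH high, 7.74 in control) and PECAM1 (6.05 and 6.17). The others lay close to the median, such as CD3E (5.65 and 5.83), so reaching the median does not by itself show expression. The median differences of the fibroblast, endothelial and leukocyte lists were -0.09, -0.10 and -0.18. LYZ (4.34 in ALDH high, 5.67 in control) and CD14 (4.30 and 5.32) were the leukocyte markers over 2-fold lower, both at dim levels.

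The glycolytic enzymes were nearly level between the arrays, while several hypoxia targets outside glycolysis were lower in the ALDH-high cells. None of 15 enzymes was over 2-fold or over 1.5-fold different, and their median difference was -0.07. Of 14 other hypoxia targets, 4 were over 2-fold lower, 0 over 2-fold higher, and 6 over 1.5-fold lower, with a median of -0.27 and 12 of 14 below 0. Over all 37 members the median was -0.16, with 26 below 0, 5 over 2-fold lower and 0 over 2-fold higher. Among all 19775 genes the median was -0.01, and 1.23% were over 2-fold lower and 0.465% higher. Among the 12820 genes at or above the median level, like the members, these shares were 1.75% and 0.671%. At 1.5-fold the background was 4.21% lower and 2.61% higher over all genes, and 5.68% and 3.60% over those reaching the median level, against 8 members lower and 1 higher.

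The median of the other hypoxia targets lay 0.21 below that of the enzymes. This gap depended on which probe sets were used. Without probe sets whose IDs mark them as binding more than 1 transcript (_s_at and _x_at), 9 targets and 8 enzymes were left, with medians of -0.14 and -0.16, so the gap was 0.02. VEGFA, NDRG1 and BHLHE40 were among the targets with no value under that setting. Some genes kept only dim probe sets, such as the target P4HA1 (2.44 in ALDH high, 2.56 in control). The enzymes TPI1 (4.58 and 4.40) and ENO1 (5.02 and 5.11) did so too. A difference between the lists can therefore be stated only as a description of the main probe sets.

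**Figure D1:**
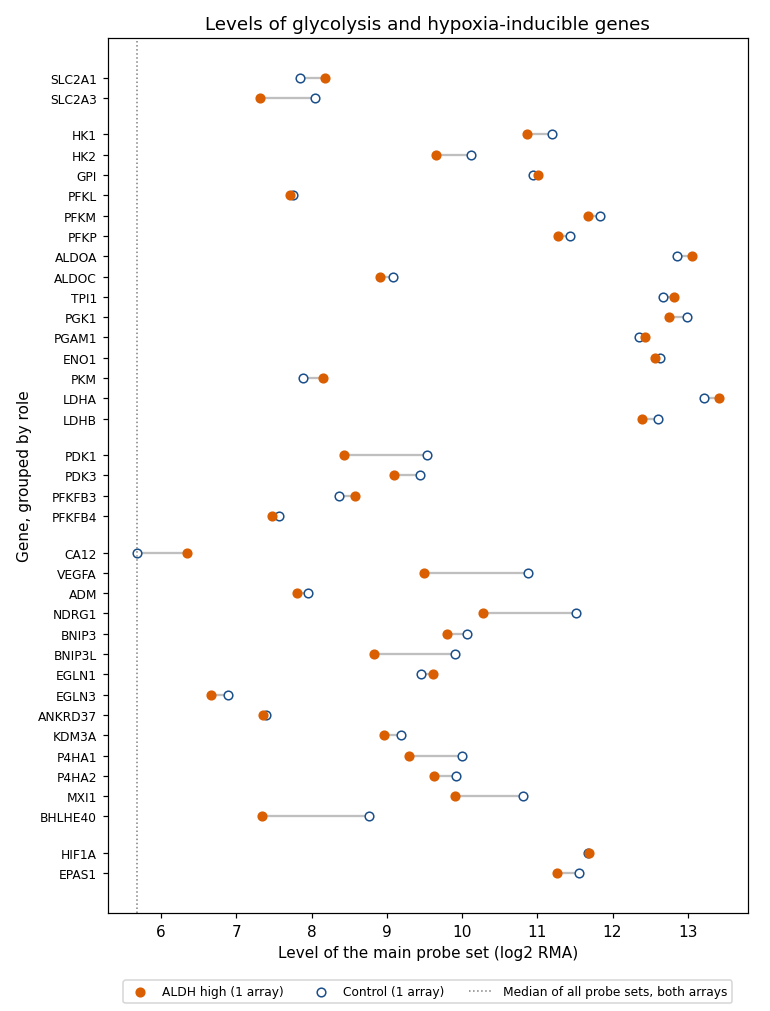
Levels of the main probe set of 37 genes on the ALDH-high array (filled) and the control array (open), in log2 RMA units, grouped by role; each point is 1 array and the dotted line is the median of all probe sets, 5.68. Most enzyme pairs nearly touch, whereas the control point lies to the right by over 1 unit for VEGFA, NDRG1, BNIP3L, BHLHE40 and PDK1.

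Of the enzymes of the upper part of glycolysis, HK1 and HK2 had the largest differences on the main probe set. HK1, an enzyme that phosphorylates glucose on entry, had a level of 10.86 in ALDH high and 11.19 in control, a difference of -0.32. HK2, a hypoxia-inducible hexokinase, had 9.66 in ALDH high and 10.12 in control, a difference of -0.47 that was the largest of the enzymes. The 2 dimmer HK2 probe sets went the other way, at 0.18 and 0.23. The mean over HK2 probe sets was -0.02, so no direction can be given for HK2. GPI, which turns glucose 6-phosphate into fructose 6-phosphate, differed by 0.06. The 3 phosphofructokinase subunits, which catalyse the committed step, lay close together: PFKL, the liver type, differed by -0.05, PFKM, the muscle type, by -0.16, and PFKP, the platelet type, by -0.16.

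The aldolase and the lactate dehydrogenase isozymes differed in sign. ALDOA, the widespread aldolase that splits fructose bisphosphate, had 13.06 in ALDH high and 12.86 in control, and its 3 probe sets lay between 0.20 and 0.26. ALDOC, the brain-type aldolase, differed by -0.16 on its single probe set. LDHA, the lactate dehydrogenase subunit that favours lactate production, had 13.41 in ALDH high and 13.22 in control, a difference of 0.20. LDHB, the subunit that favours pyruvate, had 12.39 in ALDH high and 12.60 in control, a difference of -0.21, with its second probe set at -0.25. The LDHA and LDHB differences were thus 0.41 apart. Each was smaller than the pooled SD of 0.23 between probe sets of a gene, which does not measure the spread between arrays. Of the remaining enzymes, PKM, the pyruvate kinase of most dividing cells, differed by 0.26, TPI1, the triose phosphate isomerase, by 0.14, and PGAM1, the phosphoglycerate mutase, by 0.07. ENO1, the main enolase, differed by -0.07. PGK1, which makes ATP from bisphosphoglycerate and is a classical hypoxia target, differed by -0.24, and all 6 of its probe sets were below 0, from -0.59 to -0.18.

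The glucose transporters pointed in opposite directions. SLC2A1, the basal glucose transporter GLUT1, had 8.18 in ALDH high and 7.85 in control, a difference of 0.33, with its dimmer probe set at 0.26. SLC2A3, the high-affinity transporter GLUT3, had 7.32 in ALDH high and 8.05 in control, 1.66-fold lower. The other SLC2A3 probe sets differed by -0.72 and -0.39, so its 3 probe sets shared the direction. All 3 are marked as binding more than 1 transcript, so SLC2A3 had no value without such probe sets. The difference of SLC2A1 exceeded that of SLC2A3 by 1.06.

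Of the 4 regulators of glycolytic flux, PDK1 alone was over 2-fold lower. PDK1 is a mitochondrial kinase that inhibits the pyruvate dehydrogenase complex and so restrains the conversion of pyruvate to acetyl-CoA. Its main probe set had 8.43 in ALDH high and 9.54 in control, 2.16-fold lower. The 2 dimmer PDK1 probe sets differed by -0.56 (5.95 in ALDH high, 6.51 in control) and -0.11 (4.38 and 4.49), and the mean over all 3 was -0.60, within 2-fold. PDK3, a related kinase, differed by -0.35, with 4 of 5 probe sets below 0. PFKFB3 and PFKFB4 make and remove fructose 2,6-bisphosphate, the activator of phosphofructokinase, and differed by 0.22 and -0.10.

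**Figure D2:**
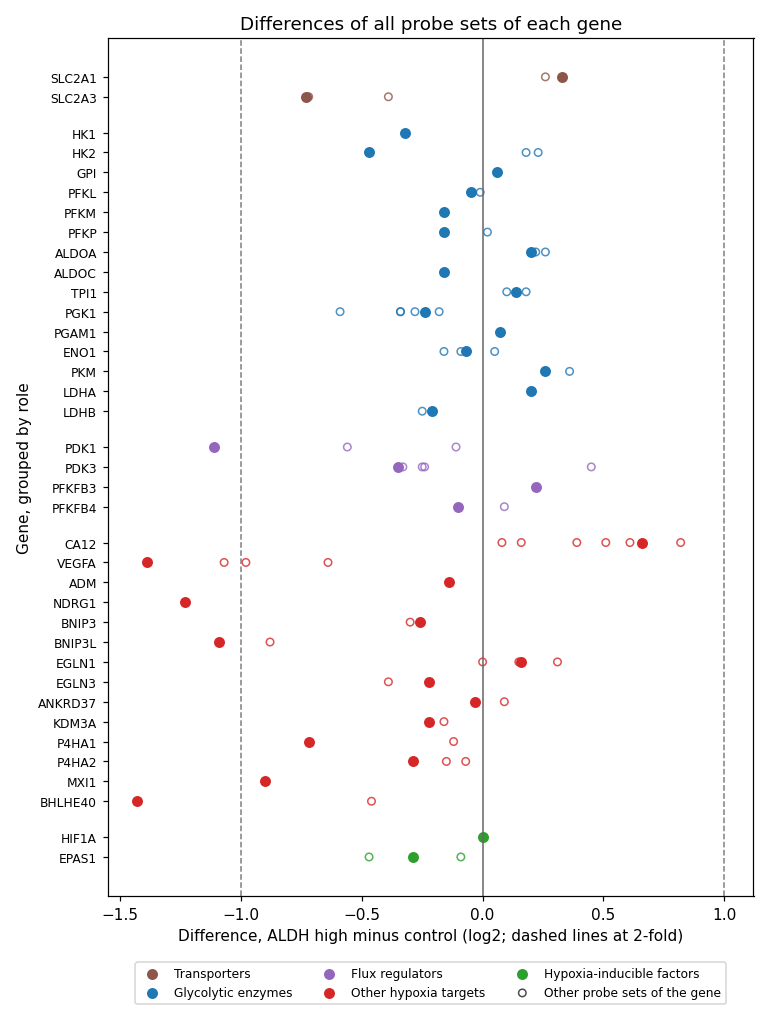
Differences in log2 units, ALDH high minus control, of the main probe set (filled) and every other probe set (open) of the 37 genes; colours give the role and dashed lines mark 2-fold. The VEGFA probe sets all lie at -0.64 or below and the CA12 probe sets all above 0, whereas those of HK2 and PDK3 fall on both sides of 0.

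VEGFA and BHLHE40 were the 2 lowest of the hypoxia targets. VEGFA, the main growth factor of blood vessels, had 9.49 in ALDH high and 10.88 in control on its main probe set, 2.62-fold lower. Its other probe sets differed by -1.07, -0.98 and -0.64, so all 4 were lower in ALDH high. BHLHE40, a circadian and hypoxia-induced transcriptional repressor, had 7.34 in ALDH high and 8.77 in control, 2.69-fold lower. Its second, dimmer probe set differed by -0.46, and the mean of both was -0.95, within 2-fold. Among all genes ranked from the most negative difference, BHLHE40 stood at place 84 and VEGFA at place 91 of 19775.

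NDRG1 and BNIP3L were also over 2-fold lower. NDRG1, a stress-responsive gene long used as a marker of hypoxia, had 10.28 in ALDH high and 11.51 in control on its single probe set, 2.35-fold lower. BNIP3L, a mitophagy receptor of the outer mitochondrial membrane, had 8.83 in ALDH high and 9.91 in control, 2.13-fold lower, with its second probe set at -0.88. Its relative BNIP3, which shares that function, differed by -0.26 and -0.30 on its 2 probe sets. The difference of BNIP3 exceeded that of BNIP3L by 0.83. BNIP3L was the member just past 2-fold, and MXI1, an antagonist of MYC that had 9.91 in ALDH high and 10.81 in control, was the next one short of it, 1.87-fold lower.

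The collagen prolyl hydroxylases were both lower, to different degrees. P4HA1, a catalytic subunit that modifies procollagen, had 9.29 in ALDH high and 10.00 in control, 1.64-fold lower. Its only other probe set was dim (2.44 in ALDH high, 2.56 in control) and could show little. P4HA2, a second such subunit, differed by -0.29, with all 3 probe sets below 0.

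The remaining targets differed little, apart from CA12. EGLN3, an oxygen-sensing prolyl hydroxylase induced by the factors it restrains, differed by -0.22. EGLN1, the main enzyme of that kind, differed by 0.16. ANKRD37, an ankyrin repeat gene, had 7.36 in ALDH high and 7.39 in control. KDM3A, a histone demethylase, differed by -0.22, and ADM, the vasodilator peptide adrenomedullin, by -0.14. CA12, a membrane carbonic anhydrase, was the only member over 1.5-fold higher, at 1.58-fold (6.34 in ALDH high, 5.68 in control). All 7 CA12 probe sets were above 0, from 0.08 to 0.82, but the control level was dim, near the median of all probe sets, and the brightest probe set not marked as shared between transcripts differed by 0.08.

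The mRNA of HIF1A was level and that of EPAS1 slightly lower. HIF1A, which encodes HIF-1 alpha, had 11.69 in ALDH high and 11.68 in control. EPAS1, which encodes HIF-2 alpha, had 11.26 in ALDH high and 11.55 in control, a difference of -0.29, and its 3 probe sets lay between -0.47 and -0.09.

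**Figure D3:**
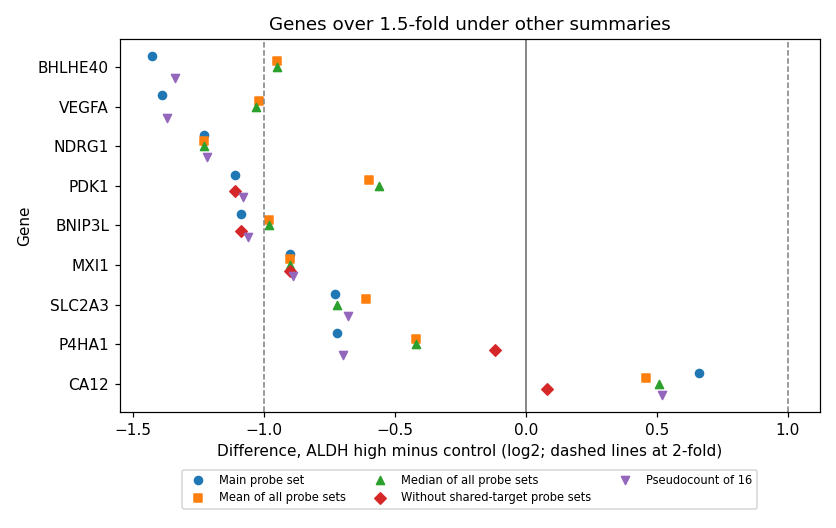
Differences in log2 units, ALDH high minus control, of the 9 genes over 1.5-fold, on the main probe set and under 4 other summaries; dashed lines mark 2-fold and a missing diamond means that no probe set was left. VEGFA and NDRG1 lie beyond 2-fold for the main probe set, the mean, the median and the pseudocount. NDRG1 has 1 probe set, so its mean and median repeat the main value. BHLHE40, BNIP3L and PDK1 move inside 2-fold for the mean and the median.

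Genes with the sequence of the hypoxia response element near their start were found both among members that were lower and among members that were level. The core searched was ACGTG or GCGTG on either strand, in the 250 bases before each start listed by RefSeq (GRCh38.p14), where 33 of 37 members had 59 entries. ACGTG is also part of the E-box CACGTG. The core was present in 11 of 14 entries of the other hypoxia targets (78.6%), which came from 11 genes. It was present in 17 of 35 entries of the enzymes (48.6%) and 43.2% of all 35116 RefSeq entries. The enzymes HK1 and PFKM gave 7 entries each, of which 1 each held the core. Counted by gene, at least 1 entry held the core in 9 of 11 targets, 12 of 15 enzymes and 12945 of 27305 RefSeq genes. By that count the targets and the enzymes were alike, though a gene with more entries has more chances of a match. VEGFA, NDRG1 and BNIP3L, all over 2-fold lower, had no entry and were not searched. Entries of 1 gene overlap or lie close together, a match is a description of letters and not a bound site, and no match says only that these letters are absent from the window. The sequences below are shown because BHLHE40 and PDK1 are the members over 2-fold with an entry that is printed, and PFKL and GPI are the enzymes with the smallest difference. All are on the plus strand, written 5′ to 3′, and capitals mark the core on either strand. They lie just before the gene start, at chr3:4979187-4979436 for BHLHE40, chr2:172555123-172555372 and chr2:172555840-172556089 for the 2 starts of PDK1, chr21:44299803-44300052 for PFKL and chr19:34364742-34364991 for GPI.
BHLHE40: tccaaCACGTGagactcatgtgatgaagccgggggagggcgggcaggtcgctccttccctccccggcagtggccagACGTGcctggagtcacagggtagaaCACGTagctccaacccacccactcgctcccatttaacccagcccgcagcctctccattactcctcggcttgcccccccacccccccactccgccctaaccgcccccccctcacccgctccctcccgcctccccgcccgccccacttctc
PDK1 upstream start: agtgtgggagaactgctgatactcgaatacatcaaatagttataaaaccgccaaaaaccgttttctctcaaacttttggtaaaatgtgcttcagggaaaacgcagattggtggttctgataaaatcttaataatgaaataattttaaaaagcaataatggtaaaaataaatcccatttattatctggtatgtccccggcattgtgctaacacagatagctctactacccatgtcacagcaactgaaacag
PDK1 downstream start: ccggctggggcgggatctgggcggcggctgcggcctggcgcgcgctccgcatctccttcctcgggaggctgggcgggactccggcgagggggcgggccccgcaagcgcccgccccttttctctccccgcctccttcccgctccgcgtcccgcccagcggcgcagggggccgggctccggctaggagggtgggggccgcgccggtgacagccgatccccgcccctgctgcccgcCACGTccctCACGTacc
PFKL: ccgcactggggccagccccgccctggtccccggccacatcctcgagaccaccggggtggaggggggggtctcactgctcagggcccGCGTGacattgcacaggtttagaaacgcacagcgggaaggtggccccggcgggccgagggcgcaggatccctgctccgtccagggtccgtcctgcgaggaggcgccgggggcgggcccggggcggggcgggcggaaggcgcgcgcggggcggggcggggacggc
GPI: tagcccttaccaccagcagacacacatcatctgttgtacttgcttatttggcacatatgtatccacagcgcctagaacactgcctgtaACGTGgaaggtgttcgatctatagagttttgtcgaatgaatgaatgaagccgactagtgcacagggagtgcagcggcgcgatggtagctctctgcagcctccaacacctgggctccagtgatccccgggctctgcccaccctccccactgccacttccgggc
BHLHE40 holds 4 cores, counted on both strands, with a CACGTG near the distal end. PDK1 holds 0 before its upstream start and 2 close to its downstream start. PFKL and GPI, whose levels were nearly equal on both arrays, hold 1 core each.

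Further hypoxia-inducible genes outside the set included 3 with larger differences than any member. Of 27 measured, 3 were over 2-fold lower and 0 higher, and the median was -0.23 with 21 below 0. DDIT4, an inhibitor of mTORC1 signalling, had 9.21 in ALDH high and 12.10 in control, 7.39-fold lower. STC1, the secreted glycoprotein stanniocalcin-1, had 8.02 in ALDH high and 10.64 in control, 6.16-fold lower, with its 3 probe sets between -2.62 and -2.51. STC2, its relative, had 7.48 in ALDH high and 9.84 in control, 5.13-fold lower. PPFIA4 was 1.66-fold lower at a dim level (3.64 in ALDH high, 4.37 in control). The differences of DDIT4, STC1 and STC2 stood at places 10, 12 and 19 from the lowest of all genes. Some other genes of that list were level, such as HILPDA (-0.14), a lipid droplet protein, and TMEM45A (-0.01). Others were lower to a smaller degree, such as ERO1A (-0.58) and CXCR4 (-0.53). Of the 5 above 0, ANGPTL4 (0.52) and LOX (0.43) had the largest differences. Both were near the median of all probe sets, ANGPTL4 at 6.18 in ALDH high and 5.66 in control, LOX at 5.96 and 5.53. The second ANGPTL4 probe set differed by 0.07, and those of LOX lay between 0.27 and 0.53. The genes from HILPDA to LOX are named after their values were seen.

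Oxygen-sensing genes had a median of 0.07 over 13 measured, with 0 over 2-fold in either direction. VHL, the ubiquitin ligase subunit that destroys the factors, had 6.62 in ALDH high and 7.61 in control, 1.98-fold lower on a probe set marked as shared, and its other probe set was dim and differed by 0.16. CREBBP, a coactivator of the factors, had 9.35 in ALDH high and 8.47 in control, 1.83-fold higher, with its next brightest probe set at 0.45. Its remaining probe sets were dim and went the other way, at -0.15 and -0.09.

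Genes of the ER stress and amino acid response, a pathway that also induces VEGFA, DDIT4 and STC2, were lower on the same arrays. All 14 of them lay below 0, 7 were over 2-fold lower and 0 higher, and the median was -1.04. TRIB3, a pseudokinase, had 8.86 in ALDH high and 11.72 in control, and the transcription factor ATF4, which drives the response, had 11.82 in ALDH high and 12.78 in control. This list was chosen with earlier results of these arrays known, and its part in the hypoxia target differences was not tested.

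**Figure D4:**
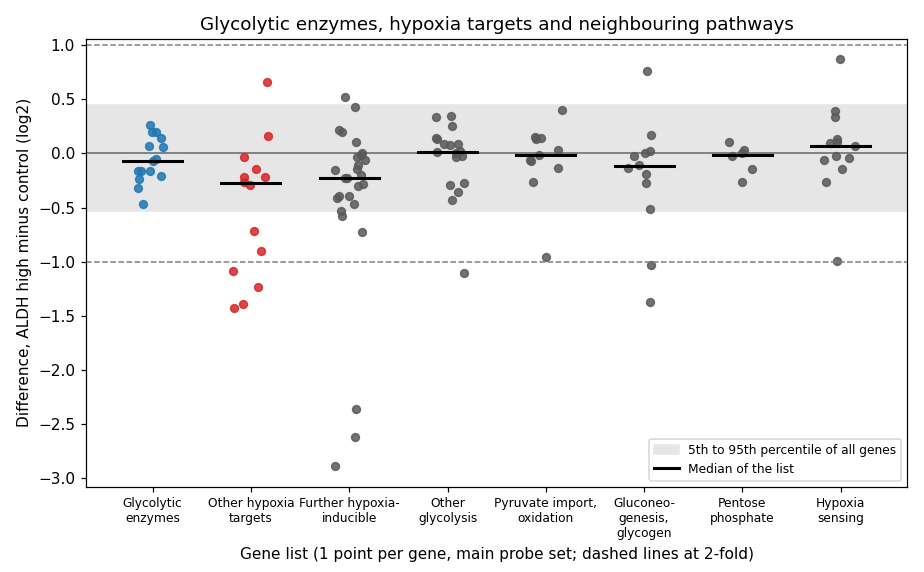
Differences in log2 units, ALDH high minus control, of the main probe set of each gene in 8 lists; each point is 1 gene, the bar is the list's median, dashed lines mark 2-fold and the grey band runs from the 5th to the 95th percentile of all genes (-0.53 to 0.45). All 15 glycolytic enzymes lie within the band, whereas 6 of the 14 other hypoxia targets lie below it and 1 above.

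Among genes of pyruvate import and oxidation in mitochondria, PDK4 had the largest difference. Of 11 genes, 0 were over 2-fold different and the median was -0.01. PDK4, another kinase of the pyruvate dehydrogenase complex, induced by fasting, had 11.47 in ALDH high and 12.43 in control, 1.95-fold lower, with its other probe sets at -1.23 and -0.53. PDK2 differed by -0.01. The pyruvate carrier subunits MPC1 and MPC2 differed by -0.06 and 0.14. Of the subunits of the pyruvate dehydrogenase complex, PDHA1 differed by -0.07, PDHB by 0.15, PDHX by 0.13, DLAT by 0.03, and DLD by -0.26, with its second probe set at -0.19. These carriers and subunits are named after their values were seen. Of 18 other glycolysis genes, 1 was over 2-fold lower, PFKFB2, the heart-type enzyme of fructose 2,6-bisphosphate (7.22 in ALDH high, 8.32 in control), whose 3 dimmer probe sets lay between -0.09 and 0.05. GAPDH differed by 0.08, with its 6 probe sets between 0.03 and 0.08.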

How the data were processed

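Gene expression was measured on 1 Affymetrix array of ALDH-high and 1 of control QGP1 cells. The authors deposited RMA output, a log2 level per probe set, per the submitters' processing notes, with no version stated in the sources used here. Both arrays were labelled from the poly-A tail, per the labels' protocols, so the 3' ends of transcripts are measured. Background correction in RMA compresses differences at dim levels.

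Of 54675 probe sets, 41097 had 1 gene symbol in GEO's platform annotation, 1801 had several and 11777 none. Genes were named from single symbols only, and the Entrez IDs of all 37 measured members carried the same symbol in RefSeq. A gene was represented by its probe set of highest mean level. No test was possible with 1 array per group. A 2-fold threshold, as in the series description, and a 1.5-fold threshold described sizes. The genes named are members over 1.5-fold, isozyme pairs, both factors, and in neighbouring lists those over 1.5-fold or the largest; the other members are given in brief. Members and lists were chosen with earlier results of these data known.

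Alternatives were the mean or median of a gene's probe sets, leaving out probe sets ending in _s_at or _x_at, a pseudocount of 16, centring on array medians, and a filter at the median level. The steps were tested on simulated data. Python 3.11.15, pandas 2.3.3 and numpy 2.4.6 were used.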

Additional observations from a re-analysis of the deposited data

How the results depend on the processing

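The count of members over 2-fold, 5 on the main probe sets, was 2 with the mean of all probe sets (VEGFA and NDRG1), 2 with their median (the same genes), and 2 without shared-target probe sets (PDK1 and BNIP3L, with 23 members left). It was 5 with a pseudocount of 16. It was also 5 after centring and with the filter at the median level, but these 2 settings are no check on the count. The filter removed no member, because all 37 reached that level. Centring shifted all differences alike and only slightly, as the medians nearly matched (5.68 for ALDH high, 5.69 for control). Without shared-target probe sets the median of the other hypoxia targets was -0.14, and it exceeded that of the enzymes by 0.02, where the main probe sets gave -0.21; fewer genes were left. Under the other 5 settings that gap ran from -0.26 to -0.20, but the filter and centring could not move it. The median of all members ran from -0.16 to -0.14 and that of the enzymes from -0.16 to -0.03 over the 6 settings. Of 158 values under another setting, 141 moved by less than the yardstick (0.23 for a gene, 0.1 for a median, 1.5 times for a count). The other 17 moved by more, and 0 over 2-fold changed sign. The 141 include values that could not move: all under the filter, the gap after centring, and the mean or median of genes with 1 probe set. The other values after centring could move only slightly. Of 23 named members, 0 moved by more with the pseudocount, centring or the filter, and 5 with the mean or the median. Without shared-target probe sets, 2 of 13 did. Depth is not recorded for arrays, and no detection calls were used here. No paired analysis was possible because each group had 1 array.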

Other observations

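Carbohydrate storage and the pentose phosphate branch were not described above. Of 12 gluconeogenesis and glycogen genes, 2 were over 2-fold lower in the ALDH-high cells and 0 higher, with a median of -0.12. PYGL, the liver glycogen phosphorylase, had 5.94 in ALDH high and 7.31 in control, 2.58-fold lower. PCK2, the mitochondrial phosphoenolpyruvate carboxykinase, had 8.60 in ALDH high and 9.63 in control, 2.04-fold lower. GBE1, the glycogen branching enzyme, had 10.43 in ALDH high and 9.67 in control, 1.70-fold higher. PYGL, PCK2 and GBE1 each had a single probe set. Of 6 pentose phosphate genes none was over 1.5-fold different, the median was -0.01, and the largest difference was that of PGD, the phosphogluconate dehydrogenase, at -0.26.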
